A study of Homo sapiens with 6 samples.

Results

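The extracellular matrix genes of a melanoma line were followed through a change in HMGB2, a chromatin protein that binds and bends DNA. They comprised every annotated collagen chain gene (COL followed by a type number, A and a chain number), every laminin chain gene (LAMA, LAMB and LAMC) and 5 secreted matrix glycoproteins, FN1, TNC, THBS1, THBS2 and SPARC. Genes were taken into these families by name and not by a measured value, while the families themselves were chosen with earlier results of these data known. They came to 61 protein-coding genes of the 58302 gene identifiers in the count tables, and all 61 were present. Their messages were counted by RNA sequencing in A375, an established human melanoma cell line, in 6 libraries of poly(A)-selected RNA. Of these, 3 came from A375 cells carrying an empty vector and 3 from A375 cells overexpressing HMGB2 (HMGB2OE), so the comparison asks how these genes differ when HMGB2 is raised. Both lines were made by lentiviral transduction and drug selection, and the control cells therefore carried a vector and had been selected too. Each group was 1 stable line, and the study described its 3 replicates as technical, so p-values measure the spread between samples of a line and not between independent transductions.

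Collagens are trimers of alpha chains wound into a triple helix. Fibrillar collagens form the cables of connective tissue, collagen IV forms the net of basement membranes, and the FACIT collagens sit on the surface of fibrils. Laminins join an alpha, a beta and a gamma chain into a cross-shaped molecule that polymerises beneath cells and is held by integrins and dystroglycan. Melanocytes rest on a basement membrane, and melanoma cells both secrete matrix of their own and adhere to the matrix they meet.

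Reads assigned to genes numbered between 45925053 and 56755212 per library. HMGB2 itself had normalized counts of 7514 ± 243 (SD, n = 3) in empty vector and 15517 ± 1177 in HMGB2OE libraries, a log2 fold change of 1.05 ± 0.10 (SE; DESeq2 Wald test, adjusted p = 4.41e-22), and every HMGB2OE library lay above every empty vector library. The third replicate of each group stood apart from the other replicates for many matrix genes. Changes without it are given for some genes where they are described, and for others with the calls under other fits. Of 12 melanoma and melanocyte markers, 8 reached a mean of 10 normalized counts, and SOX10 was listed at 0 in every library. SOX10 did have reads assigned on either strand, but 0% of them were kept in the counts, so its level cannot be read here. For PMEL and S100A1 only 3.37% and 1.82% of such reads were kept. The summed level of the 12 markers was 1106 to 1746 CPM (counts scaled to a common library total) in empty vector and 941 to 1186 in HMGB2OE libraries. CSPG4, a melanoma surface proteoglycan, made up 69.6% to 84.5% of that sum, and without it the sum was 265 to 278 and 286 to 301 CPM. All 10 epithelial markers reached that mean, with sums of 373 to 417 and 386 to 443 CPM. Fibroblast markers, which are of interest because fibroblasts are rich in collagen, reached only 33.0 to 36.9 and 33.3 to 37.7 CPM in sum, and none of the 10 was called. Endothelial markers summed to 4.44 to 4.67 and 3.19 to 3.79 CPM, and blood cell markers to 10.2 to 10.8 and 11.5 to 14.0, with PTPRC, which defines blood cells, at 0 throughout. Among these markers CSPG4 was lower in HMGB2OE (log2 fold change -0.63 ± 0.21, adjusted p = 0.0447, DESeq2), as was KDR, an endothelial receptor (log2 fold change -1.11 ± 0.26, adjusted p = 0.00115, DESeq2). The CSPG4 groups overlapped, with 42385 normalized counts in empty vector replicate 3 and 45253 and 42954 in HMGB2OE replicates 1 and 2. Of the 8 melanoma markers that edgeR tested, 0 were called lower. The other abundant melanoma markers, MITF, S100B and PRAME, had log2 fold changes of 0.17, 0.11 and 0.09, none of them called. The part of such cells in the matrix results was not tested.

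SPARC was the matrix message with the highest level per length of exon. TNC and chains of laminin, collagen IV, collagen VI and collagen IX were also among the 10 highest. Levels between genes are compared as RPKM, reads per kilobase of exon scaled to a common total of assigned reads. The length joins all annotated exons of a gene and can far exceed its longest transcript. It was 19271 against 6446 bases for COL4A2 but 8446 against 7929 for LAMC1, so the order of genes below SPARC depends on the annotation. SPARC, a collagen-binding glycoprotein of the cell surroundings, reached 588 ± 39.5 in empty vector and 611 ± 22.02 in HMGB2OE libraries (mean ± SD, n = 3), far above any other gene of the group. On the same scale COL9A3, a chain of the FACIT collagen IX of cartilage, came next with 67.9 ± 17.8 and 67.5 ± 12.4. LAMC1, the gamma chain shared by most laminins, had levels of 64.8 ± 15.6 and 57.4 ± 7.47, and TNC, the anti-adhesive glycoprotein tenascin C, of 54.1 ± 18.03 and 51.4 ± 10.1. The ranges of mean ± SD of COL9A3, LAMC1 and TNC overlapped in empty vector libraries. These genes were measured in the same libraries, so that spread does not measure how certain their order is. Ranked by the mean level over both groups, the remaining places among the 10 highest were held by COL6A1 (38.5 ± 10.9 in empty vector), LAMB1 (32.6 ± 8.58), COL4A2 (31.3 ± 11.3), COL6A2 (22.5 ± 6.63), LAMB2 (22.1 ± 5.59) and COL4A1 (14.3 ± 4.68). The classical fibril chains were much lower, at 4.98 ± 1.64 for COL1A1 and 2.06 ± 0.470 for COL1A2 in empty vector libraries. All 61 genes together took between 0.577% and 0.760% of assigned counts, and SPARC alone was 33.9% to 49.6% of that share. At the other end, COL10A1, COL20A1, COL23A1, COL25A1, COL28A1, COL6A5, COL6A6 and LAMB4 had only 2 to 15 reads each over all 6 libraries and received no adjusted p. COL6A6 had no read in the empty vector libraries and 1, 2 and 1 in HMGB2OE libraries, a difference that this depth cannot resolve.

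**Figure D1:**
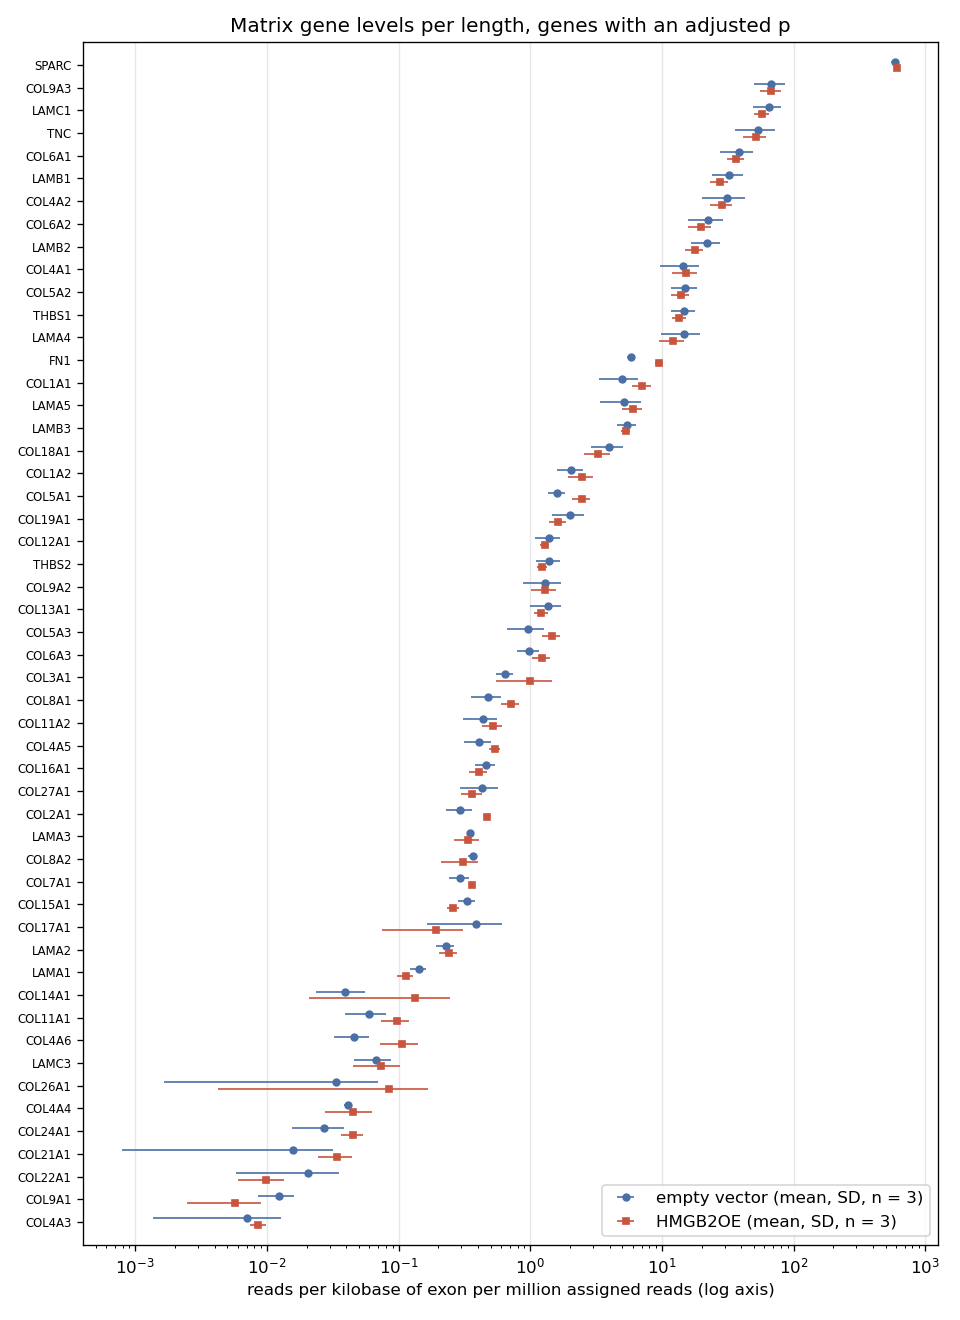
Level of 52 genes with an adjusted p, as RPKM (reads per kilobase of exon, scaled to a common total) on a log axis, with circles for empty vector and squares for HMGB2OE (mean, SD, n = 3; a lower bar that would pass below 0 is cut short). SPARC stands at the top (588 and 611), chains of laminin, collagen IV and collagen VI fill most of the upper places, and FN1 is the highest gene whose bars separate.

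With all 6 libraries few of these genes were called, and those that passed the test were higher in HMGB2OE. Some of the fits given further below called more of them, in both directions. Of the 53 with an adjusted p, 4 were higher in HMGB2OE (FN1, COL5A1, COL2A1 and COL14A1) and 0 were lower at an adjusted p under 0.05 (DESeq2). That is 7.55% higher, against 2.29% of all 18878 genes tested called higher and 2.64% called lower. At an unadjusted p under 0.05, 10 (18.9%) were higher and 1 (1.89%) was lower, beside 6.97% and 7.29% of all genes tested. Of the called genes only COL14A1 changed by 1 or more on the log2 scale (1.89% of the 53, beside 1.3% of all genes tested). The median log2 fold change over the 53 genes was -0.01, and over all genes tested it was 0.00. In 7 genes every HMGB2OE library lay above every empty vector library (FN1, COL5A1, COL5A3, COL2A1, COL4A5, COL4A6 and COL7A1), which is 13.2% beside 11.1% of all genes tested. In 2 genes, LAMA1 and COL15A1, every HMGB2OE library lay below, 3.77% beside 10.7% of all genes tested. With edgeR's quasi-likelihood test only FN1 was called, 2.04% of 49 genes beside 1.28% of all genes tested, and 0 were lower, beside 1.52%.

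**Figure D2:**
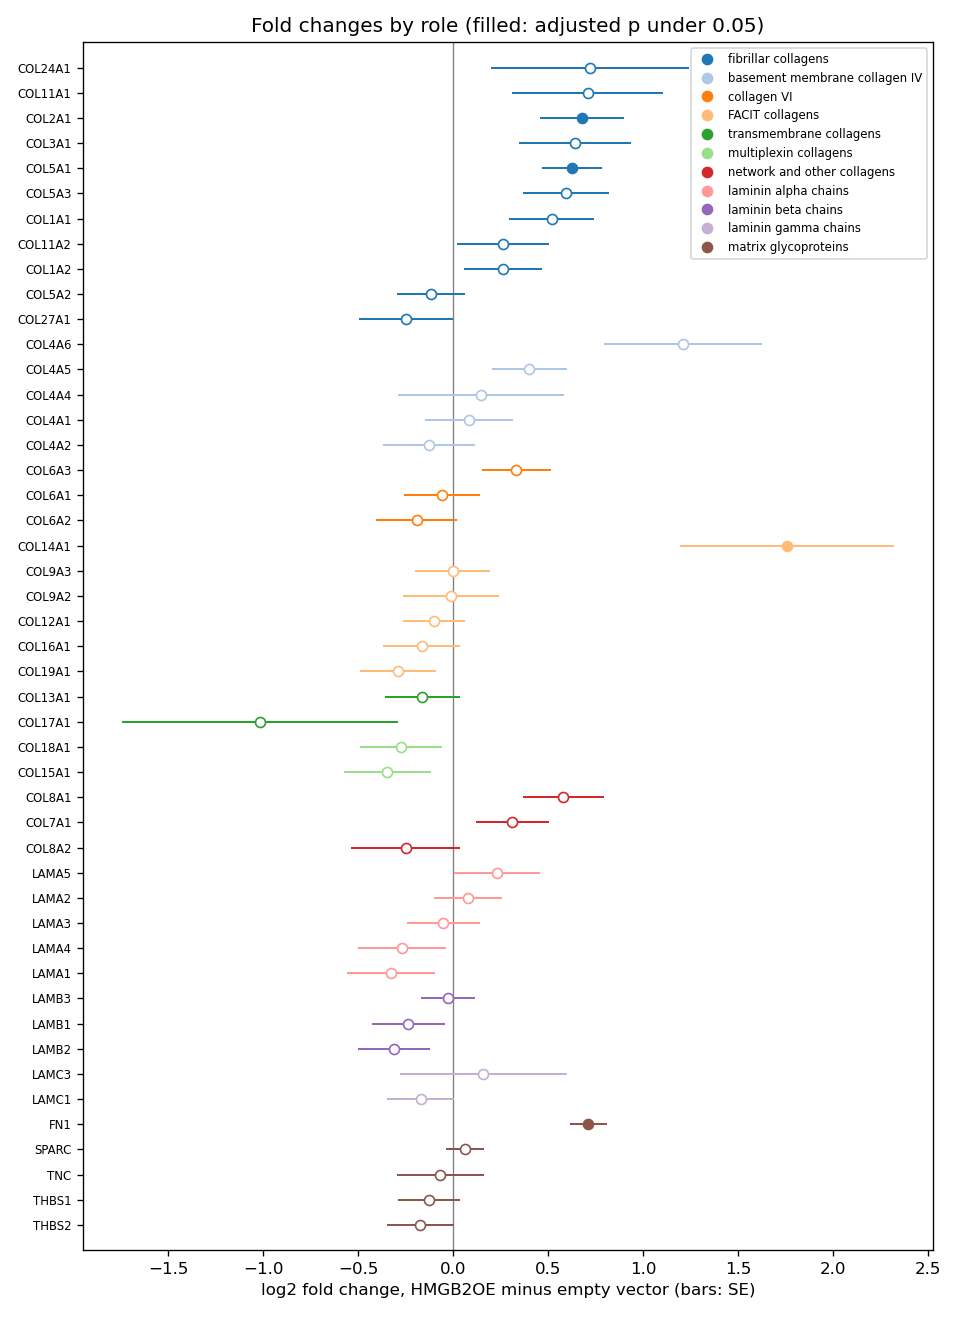
Log2 fold change (HMGB2OE minus empty vector, bars SE, n = 3 per group) of 47 genes that averaged at least 10 normalized counts, grouped and coloured by role, with filled symbols for an adjusted p under 0.05. Most fibrillar collagens lie to the right of 0, with a median of 0.59 over all 11, and all 3 laminin beta chains lie to the left, while only FN1, COL5A1, COL2A1 and COL14A1 are filled.

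Among the matrix glycoproteins FN1 rose and the other 4 were not called. FN1 (ENSG00000115414; hg38 chromosome 2, 215360440 to 215436073, minus strand) encodes fibronectin, which cells assemble through integrins into fibrils that also seed collagen deposition. Normalized counts, given throughout in the order of replicates 1, 2 and 3, were 5128, 5217 and 4765 in empty vector and 8462, 8551 and 7728 in HMGB2OE libraries for FN1. The groups were far apart, and the lowest HMGB2OE library stood well above the highest empty vector library. FN1 was 0.71 ± 0.10 higher on the log2 scale (fold change ± SE, adjusted p = 1.97e-10 in DESeq2), and it passed the test under all 14 alternatives (adjusted p 8.04e-32 to 0.00524 over 14 alternatives), edgeR included (log2 fold change 0.71, adjusted p = 0.00524). SPARC had normalized counts of 140251, 126627 and 146553 in empty vector and 137396, 146684 and 147060 in HMGB2OE libraries, overlapping groups with a log2 fold change of 0.06 ± 0.10, adjusted p = 0.884 (DESeq2). TNC had normalized counts of 29845, 32183 and 16429.5 in empty vector and 27527, 27559 and 19712 in HMGB2OE libraries. For TNC the third replicate was the lowest in each group, and the log2 fold change was -0.07 ± 0.23, adjusted p = 0.951 (DESeq2). THBS1, a thrombospondin that binds matrix and latent TGF-beta, had normalized counts of 7242, 7969 and 5351 in empty vector and 6482, 6836 and 5512 in HMGB2OE libraries, again lowest in replicate 3 of both groups, with a log2 fold change of -0.13 ± 0.16, adjusted p = 0.836 (DESeq2). Its relative THBS2 had a log2 fold change of -0.17 (adjusted p = 0.770, DESeq2). Of the 31-base words in its annotated transcripts 29.5% also occur in other genes, so reads that map to several places may be missing from its counts. Of its reads assigned on either strand 99.8% were kept.

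The FN1 promoter is shown because FN1 is the matrix gene called under every setting, and that of COL5A1 because its call came next in the number of settings. The 250 bases before the RefSeq start of FN1 (GRCh38.p14, chr2:215436069-215436318, minus strand, written 5′ to 3′ in the direction of transcription) held a perfect cAMP response element, a CCAAT box and 6 GC boxes, all in capitals. The COL5A1 window (chr9:134641553-134641802, plus strand) held 2 GC boxes, in capitals, and none of the other motifs searched.
FN1: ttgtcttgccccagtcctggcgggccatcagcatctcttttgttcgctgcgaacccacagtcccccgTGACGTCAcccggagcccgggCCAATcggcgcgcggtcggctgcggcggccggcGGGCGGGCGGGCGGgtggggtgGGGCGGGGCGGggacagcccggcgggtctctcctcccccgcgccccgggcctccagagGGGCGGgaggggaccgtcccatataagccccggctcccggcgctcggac
COL5A1: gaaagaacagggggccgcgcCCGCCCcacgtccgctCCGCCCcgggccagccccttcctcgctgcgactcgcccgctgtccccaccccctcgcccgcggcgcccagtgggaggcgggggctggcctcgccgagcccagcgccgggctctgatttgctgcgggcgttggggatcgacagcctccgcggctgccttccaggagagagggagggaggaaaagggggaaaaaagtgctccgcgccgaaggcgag
All motifs were searched on both strands, and GC boxes may overlap each other. The FN1 window was 76.4% G and C and the COL5A1 window 74%. RefSeq windows were found for 46 of the 61 genes. The cAMP response element, spelled TGACGTCA, was in 1 of these 46 (2.17%, FN1) and in 1.77% of 27305 RefSeq promoters. The GC box, GGGCGG, was in 27 (58.7%) of the matrix gene windows against 42.3% of all promoters. The CCAAT box, named by its letters, was in 12 (26.1%) against 33%. The TATA box, searched as TATAAA, was in 6 (13%) against 11.1%. The AP-1 motif, TGANTCA, was in 1 (LAMA3, 2.17%) against 6.6%. COL2A1 and COL1A1 were not in the promoter table. A match of letters is a description of the window and not evidence that a factor binds there.

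Fibrillar collagens, which build the striated fibres of connective tissue, had the highest median of the larger role groups, at 0.59 log2 over 11 genes. Of these, 2 were called higher (18.2%) and 0 lower, beside 2.29% and 2.64% of all genes tested. At an unadjusted p under 0.05 it was 5 and 0 (DESeq2), beside 6.97% and 7.29% of all genes, and edgeR called 0. COL5A1 (ENSG00000130635; chromosome 9, 134641803 to 134844843, plus strand), a chain of the collagen V that starts collagen I fibrils and limits their width, had normalized counts of 968, 984 and 758 in empty vector and 1549.7, 1448 and 1177 in HMGB2OE libraries. All 3 HMGB2OE libraries were above the empty vector libraries, and the third replicate was the lowest of each group. Its log2 fold change was 0.62 ± 0.16, adjusted p = 0.00323 (SE; DESeq2). The call held in 11 of 14 alternatives and was lost in edgeR (adjusted p = 0.0574), without HMGB2OE replicate 1 (adjusted p = 0.118, DESeq2) and without HMGB2OE replicate 2 (adjusted p = 0.0659, DESeq2), the full range being 5.11e-11 to 0.118 over 14 alternatives. COL2A1 (ENSG00000139219; chromosome 12, 47972967 to 48004554, minus strand), the main fibril chain of cartilage, had counts of 115, 106 and 75.1 in empty vector and 159, 159 and 159 in HMGB2OE libraries. The HMGB2OE libraries were almost identical to each other and above all controls, and the log2 fold change was 0.68 ± 0.22, adjusted p = 0.0441 (DESeq2), but the call held in only 3 of 14 alternatives and was lost with any 1 library left out (adjusted p 0.0142 to 0.314 over 14 alternatives).

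Other fibril chains were higher on average without passing the test. COL5A3, a further chain of collagen V, had normalized counts of 344, 423 and 224 in empty vector and 554, 520.1 and 423 in HMGB2OE libraries, with a log2 fold change of 0.59 ± 0.23, adjusted p = 0.119 (DESeq2). The COL5A3 groups did not overlap, and the call was made in 4 of 14 alternatives, among them that without empty vector replicate 2 (log2 fold change 0.81, adjusted p = 0.0189, DESeq2; 2.83e-04 to 0.534 over 14 alternatives). Without empty vector replicate 3 the change was 0.38. COL5A2, the partner chain of both, had normalized counts of 6205, 6279.6 and 4188 in empty vector and 5225, 5821 and 4341 in HMGB2OE libraries and a log2 fold change of -0.12 ± 0.18, adjusted p = 0.874 (DESeq2), with overlapping groups. COL1A1, the major chain of the collagen I of skin and bone, had normalized counts of 2087, 1609 and 3119.8 in empty vector and 2880.4, 2937 and 3938 in HMGB2OE libraries. In COL1A1 the third replicate was the highest of each group, and empty vector replicate 3 lay above HMGB2OE replicates 1 and 2. The log2 fold change of COL1A1 was 0.52 ± 0.22, adjusted p = 0.209 with all libraries and 0.82 (adjusted p = 6.12e-07) without empty vector replicate 3 (DESeq2; adjusted p 8.86e-08 to 0.810 over 14 alternatives). Without empty vector replicate 2 it was 0.32 (adjusted p = 0.682) and without HMGB2OE replicate 3 0.36 (adjusted p = 0.810, DESeq2). COL1A2, which joins COL1A1 in collagen I, had normalized counts of 1064, 891 and 1419.8 in empty vector and 1231, 1112 and 1701 in HMGB2OE libraries, overlapping, with a log2 fold change of 0.26 ± 0.21, adjusted p = 0.661 (DESeq2). COL3A1, a collagen of distensible tissue, had normalized counts of 215, 189.6 and 259 in empty vector and 499, 191 and 342 in HMGB2OE libraries. For COL3A1 the spread lay in HMGB2OE, where replicate 2 matched the controls and replicate 1 was far above them. Its log2 fold change was 0.64 ± 0.30, adjusted p = 0.267 (DESeq2). Without HMGB2OE replicate 1 it was 0.27 (adjusted p = 0.924), and without HMGB2OE replicate 2 it was 0.93 (adjusted p = 0.00727, DESeq2; 0.00727 to 0.924 over 14 alternatives). The remaining fibrillar genes, COL11A1, COL11A2, COL24A1 and COL27A1, had log2 fold changes of 0.71, 0.26, 0.72 and -0.25, and none was called.

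**Figure D3:**
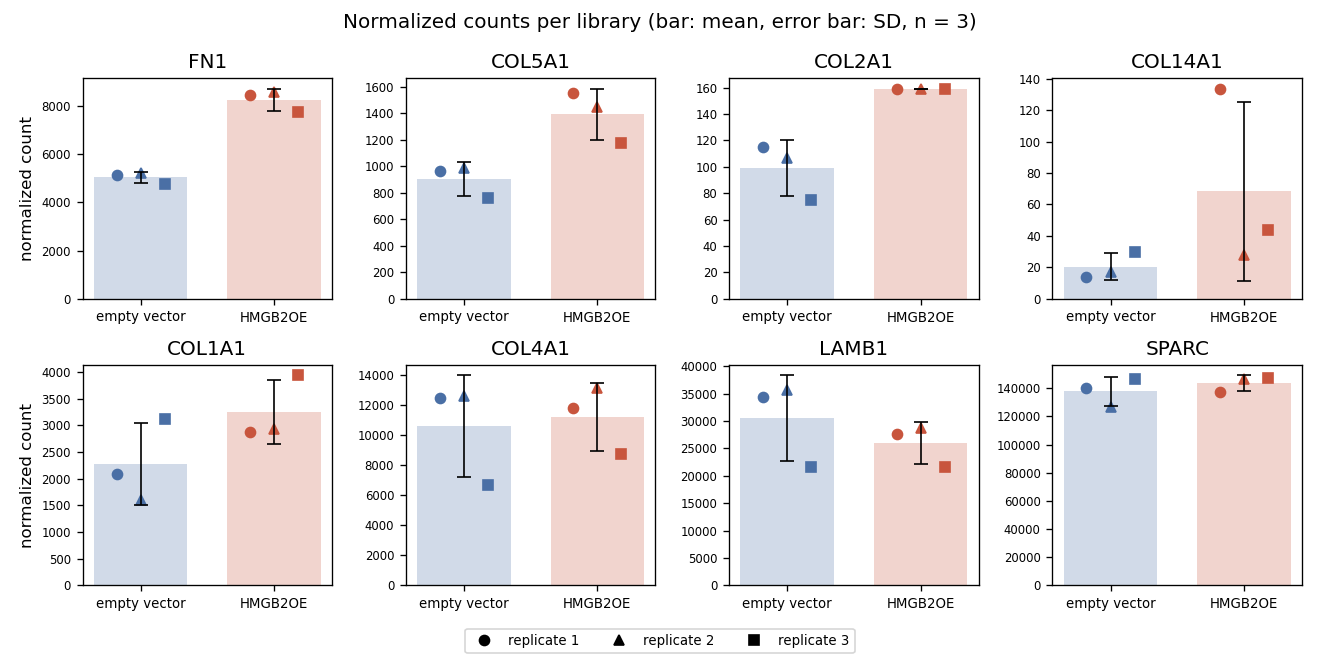
Normalized counts of 8 genes in each library, with bars for the mean and error bars for the SD (n = 3), circles for replicate 1, triangles for replicate 2 and squares for replicate 3. In FN1, COL5A1 and COL2A1 every HMGB2OE point lies above every empty vector point. In COL4A1 and LAMB1 the square is the lowest point of each group, and in COL1A1 it is the highest.

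Within a library, the ratio of chains that assemble together leaves out much of what the chains share. These ratios were chosen after the values had been seen, and no test was made of them. The ratio of COL5A1 to COL5A2, taken per kilobase of exon, was 0.102, 0.103 and 0.119 in empty vector libraries and 0.195, 0.163 and 0.178 in HMGB2OE libraries. The ratio of COL5A3 to COL5A2 was 0.0599, 0.0726 and 0.0578 against 0.114, 0.0964 and 0.105. In both collagen V ratios the groups were well separated, with HMGB2OE above. The ratio of COL1A1 to COL1A2 was 2.36, 2.17 and 2.64 against 2.81, 3.17 and 2.78, higher in each HMGB2OE library than in any control. The ratio of COL4A2 to COL4A1 went the other way, at 2.17, 2.27 and 2.05 against 1.93, 1.82 and 1.93. Of the 11 ratios computed, 7 did not overlap between groups, but several share a chain and are not independent. The share over other pairs of genes was not computed, so this count is not a result about these chains. Among the 7 was LAMA5 to LAMC1, for which only 61.0% of LAMA5 reads assigned on either strand were kept.

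Collagen IV chains, which form the basement membrane net, were not called with all 6 libraries, although counts of the most abundant pair varied widely between replicates. At an unadjusted p under 0.05, 2 of the 6 were higher and 0 lower (DESeq2), beside 6.97% and 7.29% of all genes, and edgeR called 0. COL4A1, whose chain forms the common collagen IV trimer with COL4A2, had normalized counts of 12479, 12598 and 6699 in empty vector and 11769.5, 13148 and 8732 in HMGB2OE libraries. COL4A2 had normalized counts of 35669, 37521 and 18029.7 in empty vector and 29793, 31452 and 22205 in HMGB2OE libraries. In each group the third replicate was well below the other two for both genes, the empty vector one most of all. Log2 fold changes were 0.08 ± 0.23, adjusted p = 0.939 for COL4A1 and -0.13 ± 0.24, adjusted p = 0.899 for COL4A2 (DESeq2). The pair lies head to head on chromosome 13, and their counts moved together over the 6 libraries (Pearson r = 0.96, a description over libraries that share a depth and a line). The window between them is shown since it lies upstream of both. The 126 bases between the RefSeq starts (GRCh38.p14, chr13:110307158-110307283, plus strand) held 1 CCAAT box and 1 GC box, in capitals, and were 80.2% G and C. In GENCODE the gene models of the pair overlap at their starts, and 91.3% of the COL4A2 reads assigned on either strand were kept in the counts.
COL4A1-COL4A2: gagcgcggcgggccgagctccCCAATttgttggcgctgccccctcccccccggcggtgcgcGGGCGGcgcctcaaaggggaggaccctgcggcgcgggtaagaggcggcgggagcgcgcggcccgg
COL4A5 and COL4A6, a second head-to-head pair, on the X chromosome with 340 bases between their annotated ends, form other collagen IV trimers. COL4A6 had normalized counts of 20.2, 15.9 and 28.98 in empty vector and 32.7, 52.2 and 65.3 in HMGB2OE libraries, all HMGB2OE libraries above all controls. Its log2 fold change was 1.21 ± 0.42, adjusted p = 0.0663 (DESeq2), and it was called under 3 alternatives, of which the filter of 10 counts in 3 libraries gave an adjusted p = 0.0365 (DESeq2; 0.0173 to 0.580 over 14 alternatives). COL4A5 had normalized counts of 263, 289.7 and 182 in empty vector and 315, 353 and 304 in HMGB2OE libraries, also without overlap, with a log2 fold change of 0.40 ± 0.20, adjusted p = 0.323 (DESeq2). The Pearson r of this pair over the 6 libraries was 0.36, lower than that of COL4A1 and COL4A2. COL4A3 and COL4A4, known from kidney basement membrane, were low, with mean normalized counts of 4.42 and 24.7 in empty vector libraries.

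No laminin chain gene was called, and the chains with the highest levels were lower on average in HMGB2OE. The medians were -0.05 log2 for 5 alpha chains and -0.24 for 3 beta chains, with LAMB4 too low to test. At an unadjusted p under 0.05, 0 were higher and 1 was lower of 11 with an adjusted p (DESeq2), beside the same 6.97% and 7.29%, and edgeR called 0. LAMC1, the shared gamma chain, had normalized counts of 30409, 32151 and 20305 in empty vector and 25847, 26449 and 21300.1 in HMGB2OE libraries. LAMB1, the beta chain of the laminins of early basement membranes, had normalized counts of 34336, 35672 and 21603 in empty vector and 27534, 28678 and 21577 in HMGB2OE libraries. LAMB2, a beta chain of mature basement membranes, had normalized counts of 8956, 8465 and 5514 in empty vector and 6497, 6776 and 5206 in HMGB2OE libraries. In all 3 genes replicates 1 and 2 of empty vector were above every HMGB2OE library, and empty vector replicate 3 was near or below HMGB2OE replicate 3. The log2 fold changes were -0.17 ± 0.18, adjusted p = 0.774 for LAMC1, -0.24 ± 0.19, adjusted p = 0.681 for LAMB1 and -0.31 ± 0.19, adjusted p = 0.481 for LAMB2 (DESeq2). Without empty vector replicate 3 they were -0.35 (adjusted p = 0.00730), -0.43 (adjusted p = 0.00204) and -0.50 (adjusted p = 2.20e-04, DESeq2). Other single libraries, when left out, made the changes smaller, to -0.05 for LAMC1 and -0.11 for LAMB1 without empty vector replicate 2, to -0.19 for LAMB2 without empty vector replicate 1, and to -0.08, -0.12 and -0.21 without HMGB2OE replicate 3. Adjusted p ranged from 1.47e-04 to 1 over 14 alternatives for LAMC1, 1.03e-06 to 1 over 14 alternatives for LAMB1 and 1.53e-07 to 1 over 14 alternatives for LAMB2.

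Among the alpha chains, LAMA4, found in the basement membranes of vessels and muscle, had normalized counts of 10191, 10778 and 5582 in empty vector and 7861, 8523 and 5631 in HMGB2OE libraries, with a log2 fold change of -0.27 ± 0.23, adjusted p = 0.709 with all libraries and -0.51 (adjusted p = 0.00234) without empty vector replicate 3 (DESeq2; 4.20e-06 to 1 over 14 alternatives). Without empty vector replicate 2 or HMGB2OE replicate 3 the change in LAMA4 was -0.11 in each case. LAMA5, the widespread alpha chain of adult basement membranes, had normalized counts of 4696, 4063 and 2326 in empty vector and 4809, 4648 and 3544 in HMGB2OE libraries, with a log2 fold change of 0.23 ± 0.23, adjusted p = 0.760 (DESeq2). The groups overlapped in both genes. In LAMA4 this was through the low empty vector replicate 3, while in LAMA5 HMGB2OE replicate 2 also lay below empty vector replicate 1. Only 61.0% of the reads of LAMA5 assigned on either strand were kept in the counts, since other genes overlap it. Per kilobase of exon, LAMA4 made up 71.3 ± 2.04% (SD, n = 3) of alpha chain reads in empty vector and 64.2 ± 2.09% in HMGB2OE libraries. LAMA5 made up 24.95 ± 1.90% and 32.0 ± 1.38%. With the reads of both stranded columns added, which keeps those that overlapping genes take out, the LAMA5 share was 35.5 ± 3.79% and 40.3 ± 2.04%, with overlapping groups, and its log2 fold change fell from 0.23 to 0.06. The makeup of the beta chains moved less, LAMB1 being 54.1 ± 1.49% and 54.4 ± 0.867% of beta chain reads. LAMA1, LAMA2, LAMA3, LAMB3 and LAMC3 had log2 fold changes of -0.33, 0.08, -0.05, -0.03 and 0.16, none of them called in any alternative.

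Collagen VI, which forms beaded filaments next to basement membranes, was not called in any of its 3 testable chains with all 6 libraries. COL6A1 had normalized counts of 12344, 12547 and 7351 in empty vector and 10819, 11337 and 8799 in HMGB2OE libraries, and COL6A2 had normalized counts of 7202, 6909 and 4074 in empty vector and 5504, 6159 and 4255 in HMGB2OE libraries. The third replicate was the lowest of each group in both, and the genes, 93061 bases apart on chromosome 21, had a Pearson r of 0.97 over the 6 libraries. COL6A3, the largest chain of collagen VI, had normalized counts of 1038, 857 and 1287 in empty vector and 1207, 1197 and 1600.4 in HMGB2OE libraries, where instead the third replicate was the highest of each group. Log2 fold changes were -0.06 ± 0.20, adjusted p = 0.952 for COL6A1, -0.19 ± 0.21, adjusted p = 0.799 for COL6A2 and 0.33 ± 0.18, adjusted p = 0.409 for COL6A3 (DESeq2).

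Of the FACIT collagens 1 of the 9 with an adjusted p was called higher (11.1%) and 0 lower, beside 2.29% and 2.64% of all genes tested. COL14A1, which binds fibrils and regulates their growth, had normalized counts of 14.1, 16.8 and 30.05 in empty vector and 134, 27.6 and 43.9 in HMGB2OE libraries. HMGB2OE replicate 1 was far above the other HMGB2OE libraries, HMGB2OE replicate 2 lay below empty vector replicate 3, and the groups overlapped. The log2 fold change was 1.76 ± 0.56, adjusted p = 0.0413 (DESeq2). Without HMGB2OE replicate 1 it was 0.82 (adjusted p = 0.784, DESeq2; 0.00203 to 0.784 over 14 alternatives). Without empty vector replicate 1 or 2 the change stayed at 1.55 (adjusted p = 0.280) and 1.63 (adjusted p = 0.187, DESeq2), fits that also called fewer genes over all genes. COL9A3 had normalized counts of 19113, 18887 and 11721 in empty vector and 16893, 19132 and 13604 in HMGB2OE libraries, with a log2 fold change of 0.00 ± 0.20, adjusted p = 0.997 (DESeq2), and replicate 3 was again low in both groups. COL19A1, a rare collagen of basement membrane zones, had normalized counts of 1227, 1337 and 787 in empty vector and 962, 999 and 778 in HMGB2OE libraries, with a log2 fold change of -0.29 ± 0.20, adjusted p = 0.579 (DESeq2). COL9A2, COL12A1 and COL16A1 had log2 fold changes of -0.01, -0.10 and -0.17. COL9A1, COL21A1 and COL22A1 had mean normalized counts under 10 in at least one group and standard errors of 0.95, 0.85 and 0.90, so changes in them were not detectable at this depth.

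The transmembrane, multiplexin and network collagens held no called gene with all 6 libraries. COL17A1, the hemidesmosome collagen of the skin basement membrane zone, had normalized counts of 189, 175 and 47.2 in empty vector and 114, 40.4 and 48.4 in HMGB2OE libraries. Empty vector replicate 3 and HMGB2OE replicates 2 and 3 were low and the other libraries high, and the log2 fold change was -1.02 ± 0.73, adjusted p = 0.605 (DESeq2). It became -1.42 (adjusted p = 0.00102) without empty vector replicate 3 and -1.63 (adjusted p = 0.0339) without HMGB2OE replicate 1 (DESeq2; 0.00102 to 0.998 over 14 alternatives), and ranged from -1.63 to -0.72 with 1 library left out. COL13A1, a transmembrane collagen of cell junctions, had normalized counts of 896, 919 and 559 in empty vector and 680.4, 792 and 649 in HMGB2OE libraries, with a log2 fold change of -0.16 ± 0.20, adjusted p = 0.821 (DESeq2). COL18A1, the basement membrane collagen that yields endostatin, had normalized counts of 2024, 1881 and 1192 in empty vector and 1554, 1599.6 and 1064 in HMGB2OE libraries, with a log2 fold change of -0.27 ± 0.22, adjusted p = 0.662 (DESeq2). Both overlapped between groups, and 73.7% of the COL18A1 reads assigned on either strand were kept. COL8A1, a short-chain network collagen of vessel walls, had normalized counts of 210.1, 289.7 and 179 in empty vector and 356, 376 and 284 in HMGB2OE libraries, with a log2 fold change of 0.58 ± 0.21, adjusted p = 0.1 (DESeq2). In COL8A1 only HMGB2OE replicate 3 lay within the range of the controls, and 4 of 14 alternatives called it higher, among them that without empty vector replicate 2 (log2 fold change 0.80, adjusted p = 0.0152, DESeq2; 0.00411 to 0.528 over 14 alternatives). COL7A1, which forms the anchoring fibrils of skin, had a log2 fold change of 0.31 (adjusted p = 0.499, DESeq2), COL15A1 of -0.35 and COL8A2 of -0.25. COL26A1, with a mean normalized count of 5.24 in empty vector libraries, was too low for a change to be resolved.

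In the third replicates of both groups matrix genes were low more often than other genes. Of 48 genes that averaged at least 10 normalized counts, 30 (62.5%) were below both other replicates in the empty vector group and in the HMGB2OE group alike, against 28.9% of 16692 genes of that abundance. Only 5 (10.4%, against 28.3%) were above in both, and these were COL1A1, COL1A2, COL4A6, COL6A3 and SPARC. The median log2 difference of the third replicate from the mean of the other two was -0.52 in empty vector and -0.33 in HMGB2OE libraries over the 48 genes, and 0.00 and -0.01 over all genes. The genes that were lower included the abundant basement membrane genes LAMB1, LAMC1, LAMA4, COL4A1 and COL4A2, and the shift was larger in the empty vector line. Across the 48 genes the differences in the 2 groups had a Pearson r of 0.48 and a Spearman rho of 0.54, beside 0.35 and 0.53 over the 16692 genes, as a description across genes, which are not independent. The difference had a Spearman rho of -0.36 in empty vector and -0.27 in HMGB2OE libraries with the GC content of the longest transcript, beside -0.29 and -0.27 over all genes. With its length rho was 0.18 and -0.01, beside -0.25 and -0.21 over all genes, likewise across genes. Multimapped reads, 2.58% to 4.89% in the other 5 libraries, made up 10.6% of HMGB2OE replicate 3 and 3.96% of empty vector replicate 3. The part of read mapping, of GC content or of the culture in these differences was not tested, and the labels give no batch.

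**Figure D4:**
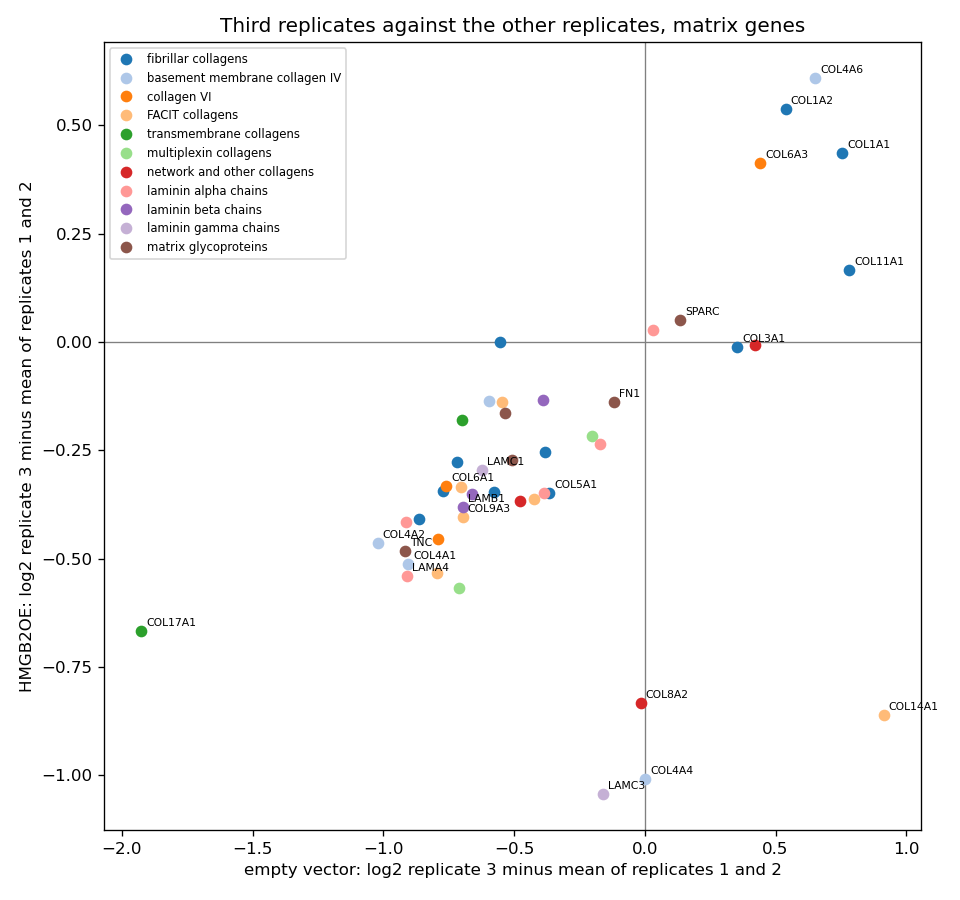
Log2 difference of the third replicate from the mean of replicates 1 and 2, for empty vector (horizontal) and HMGB2OE (vertical), for 47 matrix genes averaging at least 10 normalized counts, coloured by role. Most points lie in the lower left, where replicate 3 of both groups is lower, while COL1A1, COL1A2, COL4A6, COL6A3 and SPARC lie at the upper right.

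How many matrix genes were called moved most with empty vector replicate 3. Without HMGB2OE replicate 3 the count was close to that with all libraries, at 3 higher and 0 lower (5.77% higher of 52, beside 0.941% higher and 1.35% lower of all genes tested). With replicates 1 and 2 alone, 7 genes were higher and 12 lower (14.6% and 25% of 48, beside 7.79% and 9.11% of all genes tested). The lower genes included LAMA4, LAMB1, LAMB2, LAMC1, COL4A2, COL6A1, COL6A2, COL18A1, COL19A1, TNC and THBS1, with log2 fold changes between -0.39 for LAMB2 and -0.17 for COL6A1. Without empty vector replicate 3, 7 were higher and 11 lower (14.6% and 22.9%, beside 8.03% and 9.1% of all genes tested). Those lower included COL4A2 (log2 fold change -0.39), COL6A2 (-0.41), COL13A1 (-0.36), COL18A1 (-0.47) and COL19A1 (-0.49). COL1A2 (0.46) and COL6A3 (0.49) were among those higher. With a term for the third replicates and all 6 libraries, 11 were higher and 6 lower (22.9% and 12.5%, beside 8.74% and 8.68%). In that fit the lower genes included LAMA4 (-0.24), LAMB1 (-0.21), LAMB2 (-0.29), COL18A1 (-0.26) and COL19A1 (-0.27), all log2 fold changes. The higher ones were FN1, 5 fibrillar genes (COL5A1, COL5A3, COL2A1, COL1A1 and COL1A2), COL4A6, COL6A3, COL8A1, COL14A1 and LAMA5. Log2 fold changes of LAMB1 were -0.24, -0.21 and -0.32 with all libraries, with the term and with replicates 1 and 2 alone. Their standard errors were 0.19, 0.07 and 0.06. Without empty vector replicate 3 the change of LAMB1 was -0.43. No matrix gene called in any of these fits was called in the opposite direction in another.

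**Figure D5:**
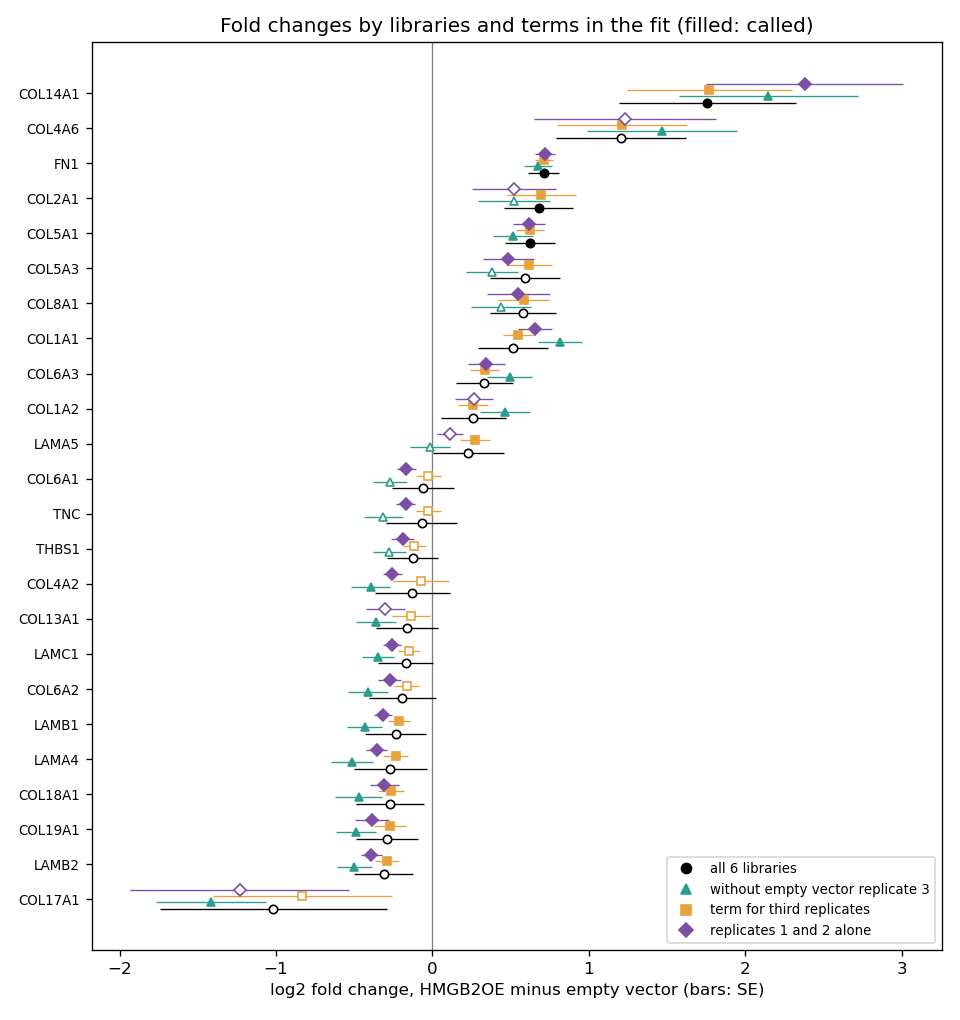
Log2 fold change (HMGB2OE minus empty vector, bars SE) of 24 matrix genes under 4 fits, with circles for all 6 libraries, triangles without empty vector replicate 3, squares with a term for the third replicates and diamonds for replicates 1 and 2 alone, filled where the adjusted p was under 0.05. FN1, COL5A1 and COL14A1 are filled throughout, and the laminins at the bottom left are open in the fit of all libraries and mostly filled in the others.

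Genes that make, trim, hold or arrange collagens and laminins were read from 5 further lists. Over 91 such genes, 82 had an adjusted p, 5 were higher and 5 lower (6.10% each, beside 2.29% and 2.64% of all genes tested), and the median log2 fold change was 0.03. With edgeR, which tested 80 of them, 4 were higher (P4HA1, P4HA2, TGFBI and VCAN) and 1 lower (SMOC1), beside 1.28% and 1.52% of all genes tested. Among 20 genes of collagen folding and modification, 0 were lower (beside 2.64% of all genes tested) and 2 were higher (10%, beside 2.29%). They were P4HA1 and P4HA2, catalytic subunits of prolyl 4-hydroxylase, the enzyme that hydroxylates proline so that the helix is stable at body temperature. P4HA1 had normalized counts of 3688, 3504 and 3990.1 in empty vector and 5028, 4976 and 5141 in HMGB2OE libraries, with a log2 fold change of 0.44 ± 0.10, adjusted p = 4.74e-04 (DESeq2). P4HA2 had normalized counts of 3063, 2898 and 2859 in empty vector and 3612, 4038 and 4064 in HMGB2OE libraries, with a log2 fold change of 0.41 ± 0.10, adjusted p = 0.00265 (DESeq2). Both were higher in every HMGB2OE library. The remaining catalytic subunit gene, P4HA3, had 20.3 normalized counts on average in empty vector and a log2 fold change of -0.16 ± 0.48, adjusted p = 0.946 (DESeq2). Only 3.01% of the P4HA3 reads assigned on either strand were kept in the counts, so neither its level nor its change can be read from them. The common partner subunit of these enzymes, P4HB, had a log2 fold change of 0.11 ± 0.09, adjusted p = 0.684, and the collagen chaperone gene SERPINH1 of 0.16 ± 0.12, adjusted p = 0.618 (DESeq2). In the list for secretion, trimming and crosslinking, 1 of 18 was called (5.56% lower, beside 2.64% of all genes tested). It was MIA2, a receptor gene for collagen export from the endoplasmic reticulum, which was lower (log2 fold change -0.37 ± 0.12, adjusted p = 0.0345, DESeq2).

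Basement membrane partners had 1 gene higher and 3 lower of 15 with an adjusted p (6.67% and 20%, beside 2.29% and 2.64% of all genes tested). In edgeR only SMOC1 of these was called. SMOC1, a SPARC-related glycoprotein of basement membranes, had normalized counts of 3095, 3423 and 2401 in empty vector and 1319, 1476 and 1257 in HMGB2OE libraries. No library of either group came near the other, and its log2 fold change was -1.14 ± 0.15, adjusted p = 4.01e-11 (DESeq2). PXDN, the peroxidase that crosslinks collagen IV, had normalized counts of 1207, 1265 and 1056 in empty vector and 802, 815 and 960.0 in HMGB2OE libraries, with a log2 fold change of -0.45 ± 0.13, adjusted p = 0.0182 (DESeq2). TINAGL1, a secreted basement membrane glycoprotein, had normalized counts of 14582, 12811 and 12749.5 in empty vector and 9453, 11194 and 9086 in HMGB2OE libraries, with a log2 fold change of -0.43 ± 0.12, adjusted p = 0.0122 (DESeq2). Both fell without overlap. FREM1, which helps hold skin epithelium to its basement membrane, rose by 0.72 log2 (adjusted p = 0.0318, DESeq2). NID1 and HSPG2, which link laminin and collagen IV, had log2 fold changes of -0.14 (adjusted p = 0.853) and -0.24 (adjusted p = 0.688, DESeq2).

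Of the receptors for collagen and laminin 1 of 15 with an adjusted p was lower (6.67%) and 0 higher, beside 2.64% and 2.29% of all genes tested. DDR2, a receptor tyrosine kinase activated by fibrillar collagen, had normalized counts of 19125, 19557 and 14608 in empty vector and 13601, 11857 and 9491 in HMGB2OE libraries, with a log2 fold change of -0.61 ± 0.17, adjusted p = 0.00814 (DESeq2). Every HMGB2OE library was below every control. ITGB1, the beta subunit of most collagen and laminin integrins, had a log2 fold change of 0.12 ± 0.08, adjusted p = 0.599 (DESeq2). Among genes that organise fibrils, 2 of 14 with an adjusted p were higher (14.3%) and 0 lower, beside 2.29% and 2.64% of all genes tested. TGFBI, a secreted adapter between collagens and integrins, had normalized counts of 10667, 10469.5 and 9089 in empty vector and 17894, 17831 and 17130.4 in HMGB2OE libraries, with a log2 fold change of 0.81 ± 0.10, adjusted p = 3.30e-12 (DESeq2). VCAN, the matrix proteoglycan versican, had normalized counts of 197, 209 and 216 in empty vector and 333, 316 and 355 in HMGB2OE libraries, with a log2 fold change of 0.69 ± 0.15, adjusted p = 3.21e-04 (DESeq2). Neither overlapped between groups.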

How the data were processed

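RNA sequencing libraries were made from poly(A)-selected RNA of A375 cells with the NEBNext Ultra kit, which does not mark strand. Per the labels, the submitters' processing notes name bcl2fastq 2.20, FastQC, Trimmomatic and STAR and the build GRCh38 (hg38). Raw counts, whole and not normalized, are what the authors deposited for each gene. Their files follow STAR's gene count output, which takes a read that maps to 1 place and 1 gene. The annotation release behind the counts is not given in the sources used here. The column for either strand was used. Ambiguous reads, which that column leaves out, made up 10.7% to 11.4% of reads. The 4 summary lines of each table stayed out of library sizes and tests.

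Symbols, coordinates and exon lengths came from GENCODE 44, which matched 57532 of 58302 identifiers (those without a match held 0.0575% of counts). As in the study's methods, DESeq2 was used (version 1.42.0, R 4.3.3), with its Wald test on group alone over all genes. Calls were made at an adjusted p (Benjamini-Hochberg) under 0.05, and DESeq2's own filter on low means was left at alpha 0.1. An adjusted p was obtained for 18878 of the 32925 genes with reads. Log2 fold changes are HMGB2OE minus empty vector, unshrunken, ± SE. Normalized counts are counts divided by size factors. Levels are RPKM, computed from the counts and exon lengths. Differences of the third replicates used log2 of the normalized count plus 1. Only the default DESeq2 fit and the edgeR fit were tried on simulated counts. These held changes larger than most reported here and no shift of the third replicates, so the trial does not cover such cases.

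The matrix genes, the role, partner and marker lists and the alternatives were chosen with earlier results of these data known. Every matrix gene could be named, and the values of 1 matrix gene are not reported here. All 6 values were given for those called in any fit and for the 10 with the highest levels, and in each partner list up to 6 called genes were named. The 14 alternatives were edgeR 4.0.16 (quasi-likelihood, TMM), DESeq2 with TMM factors, only genes with 10 counts in 3 libraries, all genes without DESeq2's filter, both stranded columns added, a replicate block, a term for the third replicates, replicates 1 and 2 alone, and each library left out in turn. No list test was made. Sequences came from RefSeq on GRCh38.p14.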

Additional observations from a re-analysis of the deposited data

How the results depend on the processing

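HMGB2 stayed higher in HMGB2OE under all 14 alternatives (log2 fold change 0.98 to 1.09), and FN1 was called under each. Depth was not varied, and genes with under about 10 normalized counts carry standard errors too wide to show a change. The cause of the changes below was not tested.

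Matrix genes called higher, 4 with all libraries and default settings, came to 1 in edgeR, 2 without the independent filter, 7 with replicates 1 and 2 alone, 11 with a term for the third replicates and 1 to 7 with 1 library left out (2 without empty vector replicate 1, 7 without empty vector replicate 3, 1 without HMGB2OE replicate 1). Those called lower, 0 by default, came to 12, 6 and 0 to 11 in the last 3 of these settings. Matrix genes called with a log2 change of 1 or more in size numbered 1 by default, 2 with the filter of 10 counts in 3 libraries, 0 in edgeR, 0 without the independent filter, 2 with the term and 0 to 3 with 1 library left out (3 without empty vector replicate 3, 0 without empty vector replicate 1 or 2). Over all genes 245 (1.3%) passed that filter by default, 259 with the filter of 10 counts, 172 in edgeR, 219 without the independent filter, 255 with the term and 0.779% to 2.26% of genes tested with 1 library left out. Partner genes called higher, 5 by default, came to 10 with replicates 1 and 2 alone, 15 with the term and 2 to 11 with 1 library left out, and those called lower, also 5, to 1 in edgeR, 16, 9 and 1 to 15. Over all genes, 432 were higher and 498 lower by default (2.29% and 2.64%) and 215 and 255 in edgeR (1.28% and 1.52%). They were 1205 and 1408 with replicates 1 and 2 alone (7.79% and 9.11%) and 1372 and 1362 with the term (8.74% and 8.68%). With 1 library left out they were 155 to 1332 (0.839% to 8.03%) and 208 to 1509 (1.13% to 9.1%). Shares of the partner genes were not computed under the alternatives, so those counts are not a result about the partner genes. Among the fits with 1 library left out, the highest counts came without empty vector replicate 3 in each case.

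The replicate number as a block gave 7 matrix genes higher and 1 lower (14.9% and 2.13% of 47). Over all genes 888 were higher and 937 lower in that fit (5.9% and 6.23% of 15051). Partner genes came to 9 higher and 8 lower. Same-numbered libraries deviated together with correlations of 0.0906, 0.142 and 0.349 over 16692 genes for replicates 1, 2 and 3. Replicate 1 stayed below 0.1, and empty vector replicate 1 followed HMGB2OE replicate 2 more closely (0.212), so the numbers were not taken as pairs.

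Of the 53 matrix genes with an adjusted p, 13 changed sign in at least 1 alternative, and 0 of these were called where the sign differed from the default. They included 6 of the genes called in some fit or among the 10 highest. For these, with 1 library left out the ranges were -0.16 to 0.23 for COL4A1, -0.39 to 0.049 for COL4A2, -0.27 to 0.065 for COL6A1, -0.20 to 0.12 for COL9A3, -0.014 to 0.44 for LAMA5 and -0.31 to 0.11 for TNC. Beyond these, COL4A1 was -0.0086 with replicates 1 and 2 alone, and COL9A3 was 0.018 with the replicate block and 0.020 with the term for the third replicates. Of the other comparisons of a single gene with its default result, 316 kept direction and side of the threshold, 54 passed it newly and 19 lost it in the same direction.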

Other observations

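The genes around the called matrix genes were read from the same DESeq2 fit, to see whether the changes extended along the chromosome. Within 1 Mb of FN1, 0 of 13 genes with an adjusted p were called, and within 1 Mb of COL5A1 and COL2A1 it was 0 of 14 and 0 of 33. Around COL14A1 1 of 11 was called, CCN3, a secreted matricellular protein gene, which was higher in HMGB2OE. Over all genes tested 4.93% were called in either direction. Counts over so few neighbours cannot show whether changes extended along the chromosome. The median log2 fold change of these neighbours was 0.08 around FN1, -0.12 around COL5A1, -0.03 around COL2A1 and 0.18 around COL14A1.

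Matrix genes that lie next to each other on a chromosome did not all share their pattern over the 6 libraries, as a description with no test. COL18A1 and COL6A1 had a Pearson r of 0.90 and LAMA5 and COL9A3 of 0.90, while COL3A1 and COL5A2, 19151 bases apart on chromosome 2 and on opposite strands, had -0.51.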
